A study of Homo sapiens with 9 samples.

Results

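Gene expression in HCT 116 cells that received either klotho vector was compared with that in cells that received the empty vector. All 9 arrays of the series entered the comparison. The 6 klotho arrays, 3 with the full-length construct and 3 with the KL1 subdomain, were taken as 1 group against the 3 control arrays. A gene was kept as a member of the higher or the lower set when all 6 klotho arrays lay on the same side of every control array. Of 17958 genes, 395 (2.2%) were higher on 6 of 6 klotho arrays and 244 (1.36%) were lower, 639 in all.

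HCT 116 is a human colorectal cancer line, and its cells were used below a passage limit that the labels state. The 3 groups were cells transfected with the empty vector pcDNA3, with a vector for mouse full-length klotho (KL-FL), or with a vector for the KL1 subdomain of mouse klotho (KL1). Total RNA was taken 24 h after transfection, and 100 ng of it was labelled for a whole-transcript Affymetrix array. All cells were transfected with JetPEI or with polyethylenimine, and the labels do not tie a reagent to a sample. The proteins were those of the mouse while the arrays carried human probes, and each array read the whole culture, cells with and without the construct together. The labels number the replicates without saying that they were separate cultures, so the p-values reflect array-to-array spread alone, and that spread may be technical. The values are log2 expression levels, a difference of 1 being a 2-fold change, and the number of arrays limits their precision.

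Klotho is a single-pass membrane protein whose extracellular part holds a KL1 and a KL2 domain. With an FGF receptor it forms the receptor of FGF23, a hormone of phosphate balance, and a shed form circulates. The title of the series names the unfolded protein response, the set of pathways by which a cell answers misfolded protein in the endoplasmic reticulum (ER). The sensors ATF6, IRE1 and PERK lie in the ER membrane. Active ATF6 and the spliced form of XBP1, which IRE1 makes, turn on chaperones and degradation factors. PERK phosphorylates the initiation factor eIF2alpha, which favours translation of ATF4 and, downstream of it, expression of DDIT3.

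Some genes of the higher set carry a classic ER stress element in the promoter, and 5 of them are shown beside DDIT3. By the width of the gap between the groups, HERPUD1 ranked 2 and HSP90B1 6 of the 395 higher genes, HSPA5 16, HYOU1 35 and CRELD2 200. The 250 bases before the start site are given 5′ to 3′ on the gene's own strand, from RefSeq (GRCh38.p14), taking the first start site listed for each gene. Capitals mark the motifs searched. The ER stress element, bound by NF-Y together with ATF6, has the letters CCAAT, then any 9 bases, then CCACG. ER stress element II has ATTGG, then any 1 base, then CCACG. The other motifs searched were TGACGTGG, the XBP1 and ATF6 site, and TGATGNAA, a composite C/EBP and ATF site. All were read on both strands, and in both elements only the outer letters, not the spacer, are in capitals. The promoters of HSPA5 (chr9:125241344-125241593, minus strand), HSP90B1 (chr12:103930160-103930409, plus strand) and CRELD2 (chr22:49918384-49918633, plus strand) held the element, HSP90B1 on both strands.
HSPA5: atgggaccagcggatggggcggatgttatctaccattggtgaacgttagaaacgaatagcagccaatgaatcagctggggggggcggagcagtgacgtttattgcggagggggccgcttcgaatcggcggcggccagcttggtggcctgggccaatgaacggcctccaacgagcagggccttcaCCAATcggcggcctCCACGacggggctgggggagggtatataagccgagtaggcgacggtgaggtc
HSP90B1: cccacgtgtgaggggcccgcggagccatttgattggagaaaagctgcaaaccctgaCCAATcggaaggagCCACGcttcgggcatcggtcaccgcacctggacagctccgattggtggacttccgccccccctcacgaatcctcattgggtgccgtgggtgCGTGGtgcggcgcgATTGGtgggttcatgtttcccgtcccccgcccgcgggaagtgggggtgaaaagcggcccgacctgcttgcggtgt
CRELD2: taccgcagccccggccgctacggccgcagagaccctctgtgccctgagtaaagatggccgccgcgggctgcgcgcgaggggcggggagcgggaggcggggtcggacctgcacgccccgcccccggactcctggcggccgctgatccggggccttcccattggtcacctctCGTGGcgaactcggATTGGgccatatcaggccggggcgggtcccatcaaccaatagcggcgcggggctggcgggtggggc
The promoters of HERPUD1 (chr16:56931892-56932141, plus strand) and HYOU1 (chr11:119057206-119057455, minus strand) held element II. HERPUD1 also held TGATGNAA on the opposite strand, and in HYOU1 the distal copy of element II overlapped a TGACGTGG.
HERPUD1: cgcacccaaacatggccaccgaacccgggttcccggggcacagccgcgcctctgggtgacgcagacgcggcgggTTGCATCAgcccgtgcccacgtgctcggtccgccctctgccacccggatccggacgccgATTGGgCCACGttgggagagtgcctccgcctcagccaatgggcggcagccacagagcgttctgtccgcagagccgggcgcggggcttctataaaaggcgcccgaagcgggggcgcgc
HYOU1: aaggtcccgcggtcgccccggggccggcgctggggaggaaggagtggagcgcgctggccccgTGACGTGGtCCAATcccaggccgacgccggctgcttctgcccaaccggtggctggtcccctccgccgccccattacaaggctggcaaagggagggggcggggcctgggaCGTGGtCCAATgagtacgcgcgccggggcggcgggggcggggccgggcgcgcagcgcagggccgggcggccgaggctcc
The promoter of DDIT3 (chr12:57520515-57520764, minus strand), the gene with the widest gap between the groups, held none of the 4 motifs. It held a site with the spacing of the ER stress element and 1 letter changed, G19T, the element's base being given first and positions counted from its first C. The capitals mark the outer letters of that stretch, at positions -100 to -82 from the start site. Other 1-letter changes were not counted over the promoters and are not marked. A stretch with such a change lies on the opposite strand of the DDIT3 promoter and overlaps the marked site. The HERPUD1 promoter holds such a stretch, ccaatgggcggcagccaca, so a 1-letter variant is not particular to DDIT3.
DDIT3: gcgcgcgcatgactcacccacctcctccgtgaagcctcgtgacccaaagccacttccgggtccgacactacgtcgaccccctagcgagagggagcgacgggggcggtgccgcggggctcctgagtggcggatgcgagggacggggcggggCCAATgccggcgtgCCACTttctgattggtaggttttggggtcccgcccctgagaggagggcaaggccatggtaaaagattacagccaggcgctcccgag

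The transfected gene was examined first. KL was dim, at 3.05, 3.06 and 3.03 on the control arrays and 3.13 to 3.27, with a median of 3.20, on the klotho arrays. All klotho arrays lay above all controls, by a mean difference of 0.14 (SE 0.033), but the gene did not pass the test across all genes (limma, adjusted p = 0.562). The difference was 0.14 with KL-FL and 0.15 with KL1. The probe set was designed for human KL, and whether it reads the mouse sequence of either vector was not tested, so it is a weak check of the labels.

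The arrays were close to each other, with medians of 5.38 to 5.42 over all genes. KL-FL replicate 3 and KL1 replicate 2 stood apart, with median correlations to the other arrays of 0.9970 and 0.9979 against 0.9986 to 0.9989 for the rest. Among 15 colorectal epithelial markers, KRT8 at 10.69, KRT18 at 10.13, EPCAM at 9.79 and CDH1 at 8.53 were bright, while KRT20 at 4.33, VIL1 at 3.77 and CDH17 at 2.76 lay below the median gene at 5.39, 6 of the 15 lying above it. Of 16 fibroblast and endothelial markers 2 lay above that median, and of 13 leukocyte markers 1, CD68 at 6.17. The array medians of the leukocyte list were 3.54 to 3.57 in controls and 3.57 to 3.63 with klotho, and those of the fibroblast and endothelial list 3.47 to 3.50 and 3.48 to 3.58. The part of these small shifts in the results was not tested.

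DDIT3 rose with klotho and was the 1 gene of 17958 called by limma (0.00557% higher, 0% lower). DDIT3 encodes CHOP, a transcription factor made late in the unfolded protein response and linked to cell death under lasting ER stress. Its probe set, 7964460, read 6.67, 6.66 and 6.72 on the controls, and on the klotho arrays it ran from 7.23 to 7.48 with a median of 7.46. Every klotho array lay at least 0.51 above the highest control. The group means were 6.68 ± 0.034 (SD, n = 3) and 7.40 ± 0.11 (SD, n = 6), a difference of 0.71 (SE 0.062) or 1.64-fold (limma, adjusted p = 0.00855). By vector the difference was 0.65 with KL-FL and 0.78 with KL1, and these share the same controls. KL-FL minus KL1 was -0.14 (SE 0.059, adjusted p = 0.855), which leaves the order of the vectors unsettled.

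The size of the DDIT3 difference held between 0.70 and 0.75 in every setting run, while the call did not. It was lost on leaving out any 1 control, with adjusted p of 0.158, 0.157 and 0.101 without replicates 1, 2 and 3, and on leaving out KL1 replicate 1, at 0.0551. It was also lost with the replicate number as a block (0.0767), with every probe set in the fit (0.0569) and with each gene's own variance (0.103). It held without each of the other 5 klotho arrays, at 0.00235 to 0.0481. At an unadjusted p of 0.05, 736 genes lay higher and 445 lower, and the 2-group fit had 7 residual degrees of freedom. Leaving out KL-FL replicate 3 added HERPUD1 to the calls (adjusted p = 0.00536). Leaving out KL1 replicate 2 added TOB2, a regulator of mRNA decay, in the lower direction. Over all 9 arrays 2 of its probe sets, which held the same values on every array, gave -1.93 and the other 0.06. The name of that call rests on the annotation of the brighter pair.

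HERPUD1 had the next widest gap. It encodes a membrane protein of the ER that takes part in the degradation of misfolded proteins. HERPUD1 read 7.90, 7.87 and 7.92 on the controls and 8.17 to 8.45, with a median of 8.42, on the klotho arrays. Its lowest klotho value, on KL-FL replicate 3, still lay 0.26 above the highest control. The difference of 0.47 (SE 0.061), or 1.39-fold, did not pass the test (limma, adjusted p = 0.119), though it did after quantile normalization of the arrays (0.021). Without control replicates 1, 2 and 3 in turn the adjusted p was 0.547, 0.485 and 0.402. It was 0.335 with the replicate number as a block and 0.683 with each gene's own variance. The difference was 0.45 with KL-FL and 0.50 with KL1.

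Below DDIT3 and HERPUD1 the gaps were small. MIR26A1, SEL1L, LURAP1L, HSP90B1, PJA2, VILL, FITM1 and C1orf162 completed the 10 widest among the higher genes, with gaps of 0.11 to 0.19. None of these 8 passed the test, with adjusted p of 0.119 to 0.547. SEL1L, the adaptor that brings substrates to the ubiquitin ligase HRD1, read 7.29, 7.39 and 7.42 on the controls and 7.58 to 7.85, median 7.64, with klotho, a difference of 0.30 (SE 0.058, adjusted p = 0.547). HSP90B1, the ER member of the HSP90 family, read 10.59, 10.59 and 10.56 against 10.73 to 10.83, median 10.79, a difference of 0.21 (SE 0.027, adjusted p = 0.119). Its arrays were tightly grouped, with an SD of 0.015 in controls (n = 3) and 0.034 with klotho (n = 6). PJA2, a RING-finger ubiquitin ligase, read 7.30, 7.27 and 7.40 against 7.53 to 7.68, median 7.59, a difference of 0.28 (SE 0.043, adjusted p = 0.197). For LURAP1L the difference was 0.36 (SE 0.066), the controls running from 4.85 to 5.12 and the klotho arrays from 5.26 to 5.46. The lowest klotho array was KL-FL replicate 3 for DDIT3, HERPUD1, MIR26A1 and C1orf162, KL-FL replicate 2 for SEL1L, and KL1 replicate 3 for HSP90B1 and PJA2.

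**Figure D1:**
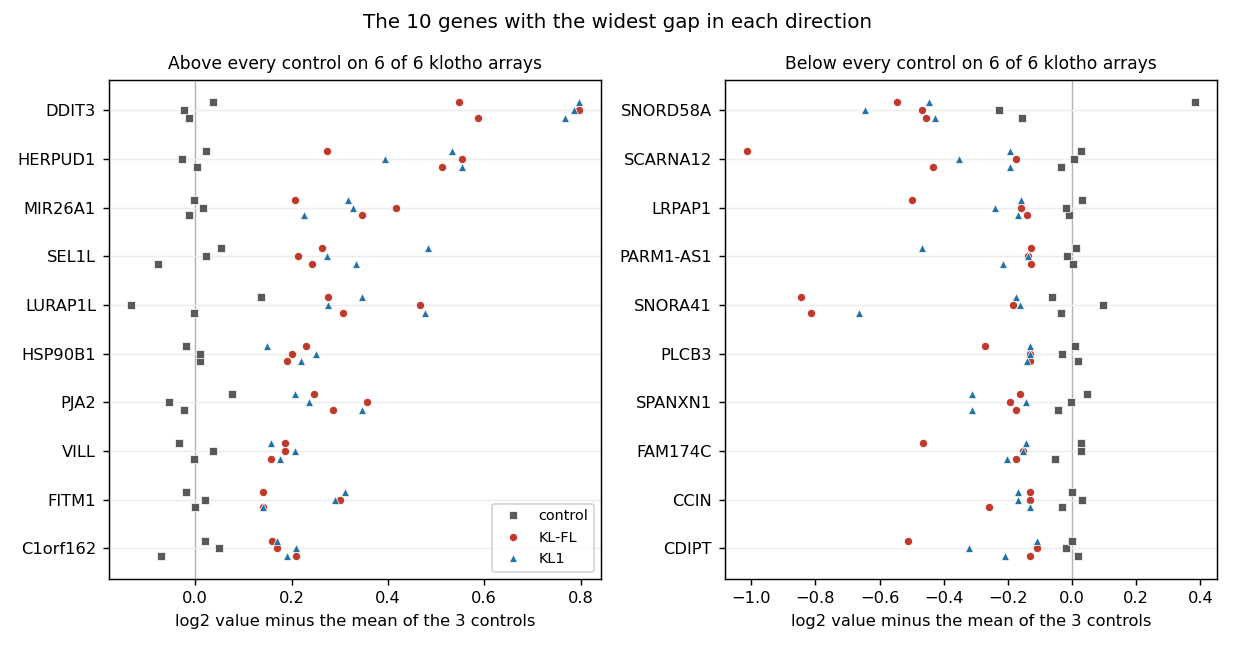
Values of the 10 genes with the widest gap between the groups in each direction, as log2 value minus the mean of the 3 controls on the x axis, 1 point per array, with squares for controls, circles for KL-FL and triangles for KL1. DDIT3 stands at least 0.51 above the highest control, while SCARNA12 and other genes of the right panel owe their lowest point to KL-FL replicate 3.

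MIR26A1 was the third widest and the dimmest of the 10. Its primary transcript lies in an intron of CTDSPL, and its main product is miR-26a-5p, a regulator of cell growth in many tissues (chr3:37969413-37969434, plus strand, RefSeq, GRCh38.p14). The sequence is shown with the seed, bases 2 to 8, in capitals.
hsa-miR-26a-5p: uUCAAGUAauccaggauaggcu
The probe set for the locus read 3.10, 3.13 and 3.11 on the controls and 3.32 to 3.53, median 3.44, with klotho. The difference was 0.31 (SE 0.044) and did not pass the test (limma, adjusted p = 0.156). The host gene CTDSPL was at -0.013 (SE 0.036), with overlapping arrays. VILL, a villin-related gene next along the chromosome, lay above every control, at 4.58 to 4.63 against 4.39 to 4.46, a difference of 0.18 (SE 0.025, adjusted p = 0.123). PLCD1, on the far side of VILL, was at -0.01 (SE 0.058). The array reads the locus and not the mature miRNA. Over all 180 miRNA loci 11 were higher on 6 of 6 (6.11%) and 1 lower, against 2.2% and 1.36% of all genes, at a median level of 3.12, where the table gives no call of presence.

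The unfolded protein response markers divided. Of 11 chosen markers, DDIT3, HERPUD1, HSPA5 and ATF3 lay above every control, and DNAJB9, SESN2, XBP1, TRIB3, ASNS, CHAC1 and ATF4 overlapped with the controls. HSPA5 encodes BiP, the main HSP70 chaperone of the ER lumen. HSPA5 read 10.64, 10.67 and 10.61 on the controls and 10.75 to 11.03, median 10.90, with klotho, a difference of 0.25 (SE 0.051, adjusted p = 0.547). ATF3, a stress-induced transcription factor, read 5.32, 5.22 and 5.27 against 5.41 to 5.66, median 5.54, a difference of 0.27 (SE 0.049, adjusted p = 0.547). Both had their lowest klotho value on KL-FL replicate 3.

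Of the overlapping markers, DNAJB9, an ER co-chaperone and XBP1 target, was 0.31 higher on average (SE 0.13, adjusted p = 0.74), and that mean leaned on KL1 replicate 2, at 5.97 against 5.31 to 5.55 on the other klotho arrays. SESN2, an ATF4 and p53 target, was close to the rule at 0.18 (SE 0.056), with KL-FL replicate 3 at 6.21 just under the highest control at 6.22. XBP1 was at 0.12 (SE 0.076) and TRIB3, an ATF4 and CHOP target, at 0.11 (SE 0.067). ASNS, the asparagine synthetase gene, was at 0.019 (SE 0.024), and CHAC1, a glutathione-degrading ATF4 target, at 0.009 (SE 0.095), a sign that turned when any of 5 arrays was left out. ATF4 itself lay at -0.072 (SE 0.043). Its other probe set gave -0.11, so both pointed downward, and neither separated the groups. The array measures total XBP1 and ATF4 RNA, so splicing of the former and translation of the latter are not seen here.

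**Figure D2:**
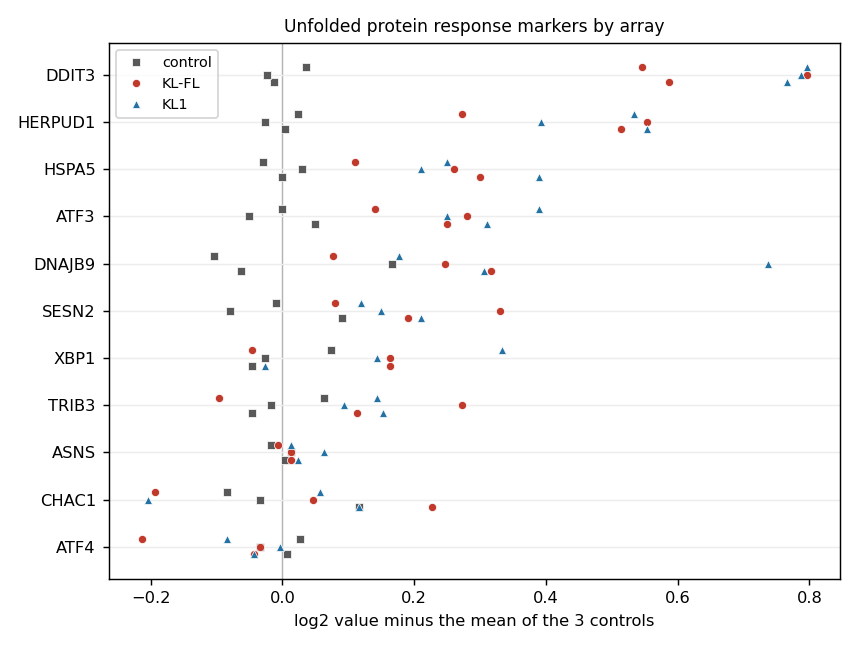
The 11 unfolded protein response markers, as log2 value minus the mean of the 3 controls on the x axis, 1 point per array (squares for controls, circles for KL-FL, triangles for KL1). DDIT3, HERPUD1, HSPA5 and ATF3 have every klotho array to the right of every control, and the other 7 overlap.

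Among the gene lists, ER chaperones and foldases held the most members of the higher set. Of 38 measured, 7 (18.4%) lay above every control and 0 below, beside 2.2% and 1.36% over all genes, and 29 of 38 had a mean difference above 0. The list's median difference was 0.049 against 0.0067 for all genes. Besides HSP90B1 and HSPA5 the 7 were DNAJC3, HYOU1, ERP44, MANF and CRELD2, and none of the 7 passed the test. DNAJC3, a BiP co-chaperone also known as an inhibitor of PERK, read 6.64, 6.76 and 6.63 on the controls and 6.85 to 7.08, median 6.95, with klotho, a difference of 0.28 (SE 0.061, adjusted p = 0.547). HYOU1, an ER chaperone that also exchanges nucleotide on BiP, was at 0.16 (SE 0.041), and ERP44, which retains cysteine-linked clients, at 0.15 (SE 0.029). MANF, a secreted stress factor, was at 0.17 (SE 0.065), with KL1 replicate 2 the highest at 8.56. CRELD2 was at 0.086 (SE 0.032). SDF2L1, an ER stress gene with element II in its promoter, missed the rule narrowly, with a lowest klotho value of 6.56 under a highest control of 6.57, and was chosen here after its values were seen.

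The median of the chaperone list relative to the control means was 0.035 to 0.11 on 5 of the klotho arrays. On KL-FL replicate 3 it was 0.0061, inside the control range of -0.0085 to 0.0091. The count of chaperones above every control was 10 without that array and 11 without control replicate 1. It was 9 after quantile normalization and 7 with each array centred on its median. Leaving out an array can only keep or raise such a count, here and in the other lists. Over all genes the higher share was 3.18% without KL-FL replicate 3 and 5.52% without control replicate 1.

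ER-associated degradation followed. Of 32 measured genes 4 (12.5%) were higher on 6 of 6 and 1 (3.12%) lower, beside 2.2% and 1.36% of all genes, with a median difference of 0.02. The 4 were HERPUD1, SEL1L, DERL2 at 0.16 (SE 0.044) and EDEM3 at 0.17 (SE 0.043), a mannosidase-like protein that marks glycoproteins for disposal. The 1 lower was DERL1 at -0.061 (SE 0.038), so the Derlin genes DERL1 and DERL2 lay on opposite sides. The count of higher members was 7 without control replicate 2, and 6 without KL-FL replicate 3 or KL1 replicate 3. Over all genes the higher share was 4.9%, 3.18% and 2.96% in those settings. The lower members numbered 4 without control replicate 3, where 3.51% of all genes were lower. After quantile normalization DERL1 no longer separated the groups. Of 45 genes of ER translocation and N-glycan transfer, GFPT1 at 0.14 and MAGT1 at 0.13 were higher and SSR2, a subunit of the translocon-associated complex, was lower at -0.14. That count of 2 higher became 6 after quantile normalization and 4 without control replicate 2 or 3. MAGT1 has another, dim probe set, at -0.025. Of 38 ER-to-Golgi genes 1, the COPII coat gene SEC24A at 0.11, was higher.

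Of 19 sensors and transcription factors of the response, 3 (15.8%) were higher and 0 lower, namely DDIT3, ATF3 and EIF2AK3, which encodes PERK and was at 0.10 (SE 0.037). Over all genes 2.2% were higher and 1.36% lower. The list's median difference was 0.0043, below that of all genes at 0.0067, and turned to -0.0015 with arrays centred on their medians. Of 53 ATF4 and integrated stress response targets, 3 (5.66%) were higher and 0 lower, these being DDIT3 and ATF3 again and XPOT, the tRNA exporter, at 0.16 (SE 0.034). That list had 37 of 53 means above 0 and a median of 0.033. Its count of 3 was 9 without control replicate 1 and 6 without control replicate 2 or KL-FL replicate 3. Leaving out an array can only keep or raise such a count. Over all genes the higher share was 5.52% without control replicate 1, 4.9% without control replicate 2 and 3.18% without KL-FL replicate 3. The sensor list had 5 without control replicate 1. Of 23 ER stress apoptosis genes 0 separated the groups in either direction, 1 having an unadjusted limma p under 0.05. That list had 3 higher members without control replicate 1, and 1 without control replicate 2 or KL-FL replicate 3.

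**Figure D3:**
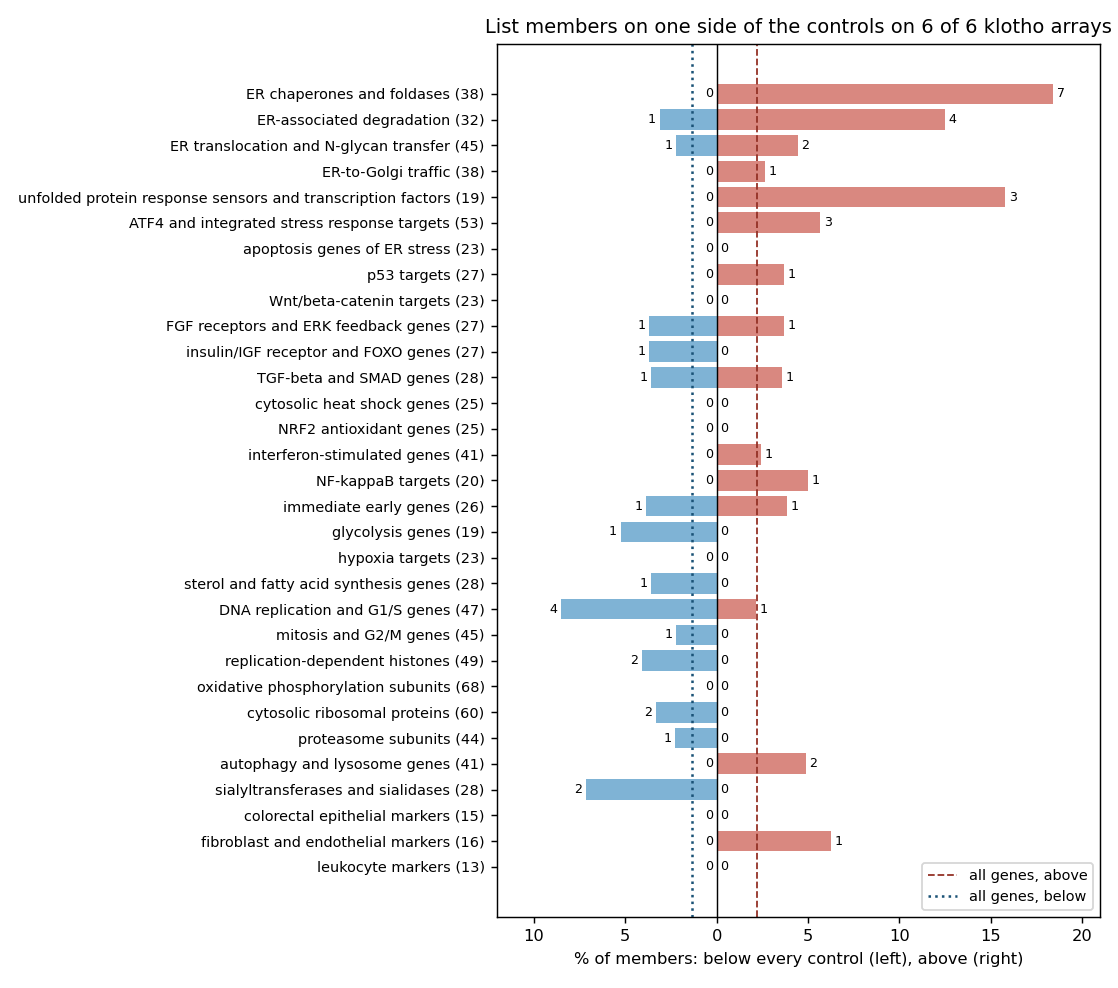
Share of each list's measured members (number in brackets) lying above every control on 6 of 6 klotho arrays (bars to the right) or below (bars to the left), in percent, with the count at each bar's end and lines for the 2.2% and 1.36% of all genes. The ER chaperones, ER-associated degradation and sensor lists have the longest bars to the right, and most other lists hold 0 to 2 members on a side.

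The ER stress elements were set beside the values of all genes that carry them. The element was found in 16 of 13861 analysed genes with a promoter in the table (0.115%) and in 4 of 303 such genes of the higher set (1.32%), HSPA5, HSP90B1, CRELD2 and TRIM5, and in 0 of 188 of the lower set. Over the whole promoter table it was in 22 of 27305 (0.0806%). Element II was in 13 of 13861 (0.0938%), in 2 of 303 (0.66%), HERPUD1 and HYOU1, and in 0 of 188, and over the whole table in 15 (0.0549%). Read the other way, 6 of the 29 genes with either element were higher on 6 of 6 (20.7%) and 0 lower, beside 2.19% and 1.36% of all 13861. The mean difference was above 0 in 22 of the 29, with a median of 0.043 against 0.0064. Genes with the element that overlapped with the controls included FICD, which modifies BiP, at 0.20 (SE 0.078), XBP1 at 0.12, CALR at 0.085 and CANX at 0.061, the last encoding the lectin chaperone calnexin. The count of 6 was 10 without control replicate 1, 7 without KL-FL replicate 3 and 7 after quantile normalization. These genes overlap with the chaperone list, and the match of letters is a description.

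The other motifs were less marked. TGATGNAA was in 16 of 303 promoters of the higher set (5.28%) and 4 of 188 of the lower (2.13%), beside 350 of 13861 (2.53%) and 3.67% of the whole table. Genes with TGATGNAA were dim, at a median level of 3.9 against 5.61 for all genes with a promoter. The higher set was dim as well in the deposited values, and the part of level in that share was not tested. TGACGTGG was in 2 of 303 (0.66%) and 3 of 188 (1.6%), beside 0.887% of the analysed genes and 0.795% of the whole table. The G19T form of the element found in DDIT3 was in 14 of 13861 (0.101%) and 0.0916% of the whole table. DDIT3 was the only 1 of those 14 genes in either set, and the other 13 had differences of -0.072 to 0.078.

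Of the genes lower with klotho 0 passed limma, where 445 had an unadjusted p under 0.05, and the widest gap was 0.20 against 0.51 for the higher set. The 10 widest were SNORD58A, SCARNA12, LRPAP1, PARM1-AS1, SNORA41, PLCB3, SPANXN1, FAM174C, CCIN and CDIPT, with gaps of 0.093 to 0.20 and adjusted p of 0.547 to 0.74. SNORD58A, a box C/D small nucleolar RNA that guides methylation of ribosomal RNA, read 5.46, 5.39 and 6.0 on the controls and 4.97 to 5.19, median 5.16, with klotho, a difference of -0.50 (SE 0.12, adjusted p = 0.571). Its size leaned on control replicate 3. SCARNA12, a small Cajal body RNA, read 10.34, 10.38 and 10.40 against 9.36 to 10.20, median 10.10, a difference of -0.40 (SE 0.16, adjusted p = 0.74), with KL-FL replicate 3 far below the rest. SNORA41, an H/ACA RNA, read 4.17, 4.30 and 4.14 against 3.36 to 4.04, median 3.78, a difference of -0.47 (SE 0.17, adjusted p = 0.732). The klotho arrays of SNORA41 lay at 3.36 to 3.54 or at 4.02 to 4.04, with arrays of both vectors at either level.

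LRPAP1 had the widest gap of the protein-coding genes that were lower. It encodes an ER-resident chaperone of LDL receptor family proteins. LRPAP1 read 9.01, 9.00 and 9.05 on the controls and 8.52 to 8.88, median 8.85, with klotho, a difference of -0.22 (SE 0.073, adjusted p = 0.732). PLCB3, a phospholipase C, was at -0.15 (SE 0.037) and CDIPT, the phosphatidylinositol synthase gene, at -0.23 (SE 0.081). In LRPAP1, PLCB3, FAM174C and CDIPT the lowest array was KL-FL replicate 3. Of 188 small nucleolar RNAs 7 (3.72%) were lower and 2 (1.06%) higher, beside 1.36% and 2.2% of all genes, with no test of that difference. RNU5E-1, RPPH1 and SCARNA12 were lower as well.

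In the signalling lists few genes separated the groups, beside 2.2% of all genes higher and 1.36% lower. In lists this small, 1 member on a side lies close to those shares and is no result for the list. DUSP6, the phosphatase that damps ERK and a readout of FGF signalling, read 8.26, 8.21 and 8.24 on the controls and 8.01 to 8.13, median 8.13, with klotho, a difference of -0.14 (SE 0.033, adjusted p = 0.571). KL and DUSP6 were the 2 of 27 FGF receptor and ERK feedback genes that separated the groups, 1 on each side. FOXO1, a transcription factor held back by insulin signalling, was at -0.13 (SE 0.047) and the 1 of 27 in its list. TGFBR2 at 0.099 and ID1 at -0.12 (SE 0.035) were the 2 of 28 TGF-beta genes. Of 23 Wnt/beta-catenin targets 0 separated the groups, the list's median being 0.00023 and 0 having an unadjusted limma p under 0.05. Each of the interferon, NF-kappaB and p53 lists had 1 higher member, CXCL10 at 0.058, TNFAIP3 at 0.12 and SPATA18 at 0.077. The immediate early genes had ATF3 above and JUNB, at -0.15, below every control. Over the settings run the higher p53 targets numbered 0 to 4, the lower interferon genes 0 to 5 and the lower insulin and FOXO genes 1 to 4. The Wnt list had at most 1 on either side. Leaving out an array can only keep or raise these counts. Over all genes 5.52% were higher without control replicate 1, and 3.51% were lower without control replicate 3.

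The DNA replication, mitosis, glycolysis, sterol, ribosomal protein and proteasome lists had median differences of -0.04 to -0.011. Relative to the control means, glycolysis medians ran from -0.072 to 0.067 on the controls and from -0.1 to 0.011 with klotho. For the sterol list they ran from -0.054 to 0.055 and from -0.039 to 0.0056, the klotho arrays lying inside the control range. In the remaining lists some klotho arrays lay below the control range and others inside or above it. Without KL-FL replicate 3 the mitosis and proteasome medians turned to 0.00033 and 0.002, and the mitosis median was 0.0012 after quantile normalization. Of 47 DNA replication and G1/S genes 4 (8.51%) were lower, RFC2, CCNE2, POLE2 and PRIM1, beside 1.36% of all genes. The origin-licensing gene CDC6 was the 1 higher (2.13%, beside 2.2% of all genes), at 0.11 (SE 0.034). RFC2, a subunit of the clamp loader, read 8.36, 8.43 and 8.34 against 8.11 to 8.25, median 8.22, a difference of -0.18 (SE 0.040, adjusted p = 0.547). CCNE2, the cyclin E2 gene, was at -0.084, POLE2 at -0.076 and PRIM1, the DNA primase gene, at -0.14. The count of 4 was 7 without KL1 replicate 2, where 1.92% of all genes were lower. The higher members numbered 3 without control replicate 1, where 5.52% of all genes were higher. CDK1 at -0.12 (SE 0.033) was the 1 of 45 mitosis genes, ALDOA at -0.079 the 1 of 19 glycolysis genes, FADS1 at -0.056 the 1 of 28 sterol and fatty acid genes, and PSMD3 at -0.14 the 1 of 44 proteasome genes. These were 2.22% to 5.26% of their lists, beside 1.36% of all genes. In lists of such size counts of 1 or 2 lie close to that share. The proteasome list had 4 lower members with arrays centred on their medians, 0 after quantile normalization, and 3 without control replicate 1 or 3. Without control replicate 1 the lower mitosis genes numbered 3 and the lower sterol genes 4. RPS26 and RPL18, at -0.11 and -0.097, were lower among 60 ribosomal protein genes (3.33%), a count that was 6 without control replicate 1. Over all genes the lower set also grew, from 244 to 555 without control replicate 1 and to 631 without control replicate 3. It held 354 genes with arrays centred on their medians and 476 after quantile normalization. Leaving out an array can only keep or raise such counts. Of 41 autophagy genes WIPI1 at 0.088 and ATG5 at 0.084 were higher (4.88%, beside 2.2% of all genes). ST8SIA6 at -0.15 (SE 0.031) and ST6GAL1 at -0.14 (SE 0.050), both sialyltransferases, were lower among 28 genes of sialic acid handling (7.14%, beside 1.36% of all genes). ST8SIA6 was dim, at a mean of 3.10, and the gap of ST6GAL1 was 0.017. The list had 1 lower member without genes below the 50th percentile of the mean level.

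Histone and respiratory chain genes leaned downward through 1 array. Of 49 replication-dependent histones 41 had a mean below 0 and 2, H3C6 at -0.20 (SE 0.054) and H2BC7 at -0.14 (SE 0.061), were lower on 6 of 6. That was 4.08% of the list, beside 1.36% of all genes. The list's median difference of -0.066 was -0.015 without KL-FL replicate 3, on which the list stood at -0.33. Of 68 oxidative phosphorylation subunits 50 had a mean below 0 and 0 separated the groups, 2 having an unadjusted limma p under 0.05. That 0 depended on single arrays, with 4 lower without KL1 replicate 2, 3 without control replicate 1 and 2 without control replicate 3, and 1 higher without KL-FL replicate 3. The median of -0.03 was -0.0068 without KL-FL replicate 3, and 0.0062 when KL1 replicate 2 was left out as well. Of the 25 genes in each of the cytosolic heat shock and NRF2 lists, and of 23 hypoxia targets, 0 separated the groups, although 5 hypoxia targets were lower without control replicate 1. Leaving out an array can only keep or raise these counts. Of all 17958 genes, 244 were lower with every array and 344 without KL1 replicate 2. The lower genes numbered 555 without control replicate 1 and 631 without control replicate 3. Without KL-FL replicate 3 the higher genes rose from 395 to 571. The part of this general rise in the list counts was not tested.

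Most members of both sets lay only just beyond the controls. The gap had a median of 0.0163 in the higher set and 0.0207 in the lower, and smallest values of 0.0001 and 7e-05. It exceeded 0.1 in 10 higher and 5 lower genes and 0.05 in 55 and 47. The mean difference exceeded 0.25 in 10 and 13 genes, and an unadjusted limma p under 0.05 was found for 277 and 186. Just outside the sets, 617 genes were above every control on 5 of the 6 klotho arrays and 398 below. KL-FL replicate 3 was the array that missed in 176 of the 617, and KL-FL replicate 2 in 130 of the 398. Without KL-FL replicate 3 the sets held 571 and 293 genes. They held 991 and 555 without control replicate 1, 880 and 538 without control replicate 2, and 904 and 631 without control replicate 3, and the lower set held 374 without KL-FL replicate 2.

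**Figure D4:**
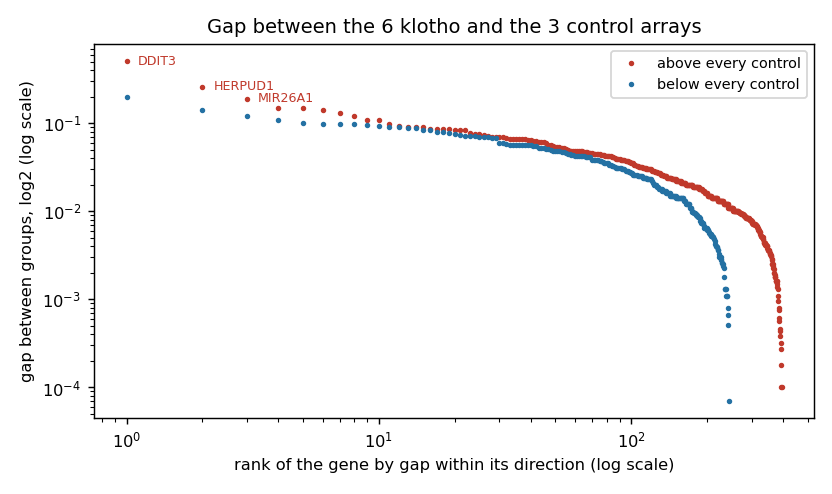
Gap between the groups on the log2 scale (y axis, log scale) against the rank of the gene by gap within its direction (x axis, log scale), 1 point per gene, for the 395 genes above and the 244 below every control. DDIT3 at 0.51, HERPUD1 at 0.26 and MIR26A1 at 0.19 lead, and the gaps fall off to 0.0001 and 7e-05.

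The balance of the sets depended on the scaling of the arrays. As deposited, 61.8% of the 639 genes were higher. After quantile normalization the sets held 368 higher and 476 lower genes, 43.6% higher, and with each array centred on its median 309 and 354, 46.6% higher. The median difference over all genes was 0.0067, 0.00073 and 0.00088 under the 3 scalings, none of them near 0.1. Of the higher genes as deposited 222 (56.2%) stayed in the higher set after quantile normalization, making up 60.3% of it, and 236 (59.7%) did so after centring, 76.4% of that set. Of the lower genes 172 (70.5%) and 215 (88.1%) stayed, which was 36.1% and 60.7% of those sets. As deposited the higher set was dim and the lower set bright, with median levels of 4.75 and 6.88. In the dimmest 20% of genes 2.59% were higher and 0.306% lower, and in the brightest 2.12% and 2.51%. After quantile normalization those shares turned over, to 0.947% and 3.73% in the dimmest 20% and 3.76% and 2.12% in the brightest. DDIT3 was at 0.71, 0.72 and 0.71 under the 3 scalings, and the chaperones above every control numbered 7, 9 and 7.

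**Figure D5:**
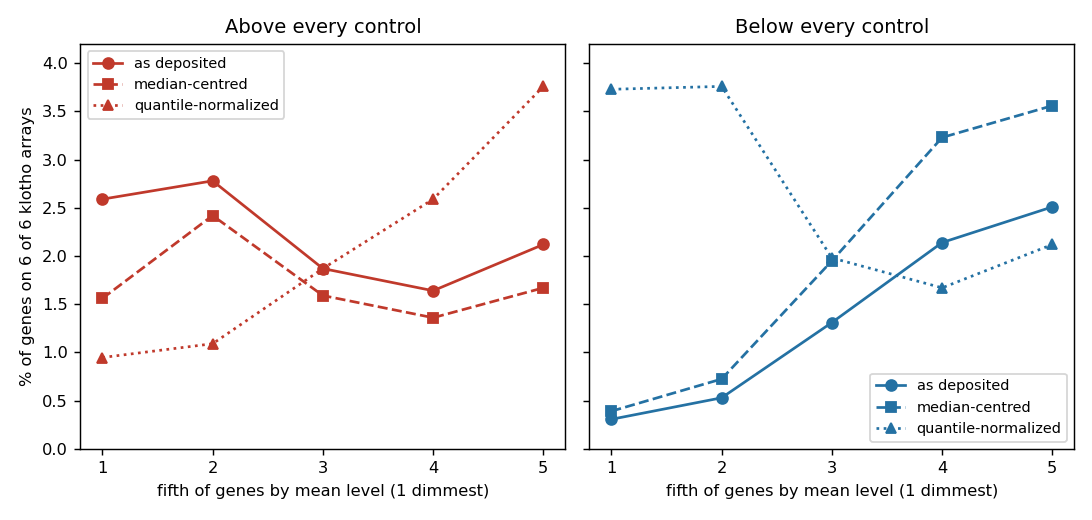
Percent of genes lying above (left) or below (right) every control on 6 of 6 klotho arrays, in each 20% of genes by mean level from the dimmest (1) to the brightest (5), under 3 scalings of the arrays. Lines cross between the deposited and the quantile-normalized values: in the dimmest 20% 2.59% against 0.947% are above the controls, and 0.306% against 3.73% below.

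The vectors were set against each other within the members. In the higher set all 3 KL-FL arrays lay above all 3 KL1 arrays in 23 of 395 genes and the reverse held in 6, and 15 had an unadjusted limma p under 0.05 for that difference. In the lower set the counts were 10, 14 and 11 of 244. Over all 17958 genes they were 838, 397 and 906, and limma called 0 genes (0%) between KL-FL and KL1, or 1, STARD9, with array weights. For the ER genes the values stood side by side, from the same controls: HSPA5 0.23 with KL-FL and 0.28 with KL1, SEL1L 0.24 and 0.36, HSP90B1 0.21 and 0.21, DNAJC3 0.30 and 0.26, and ATF3 0.22 and 0.32. None of these differences between vectors passed the test, with adjusted p of 0.855 to 0.999 over these 5 genes, which does not show that the vectors act alike.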

How the data were processed

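Gene expression was measured on 9 Affymetrix whole-transcript arrays, 3 each for the control, KL-FL and KL1 vectors according to the titles. The authors deposited 1 table of log2 values for 33297 probe sets. Partek 6.6 is named, per the submitters' processing notes. How the background was corrected, how arrays were normalized and which log base was used is not given in the sources used here, the base being read from the range of the values, and the table holds no detection call. Values were used as deposited.

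Probe sets were named through the platform's annotation: 19181 named 1 gene, 2055 several and 12061 none. Probe sets naming 1 gene were kept, and for the 895 genes with more than 1 the brightest on average was used, giving 17958 genes. Symbols were checked by gene ID against RefSeq (GRCh38.p14), where 38 had no match.

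A 2-group linear model, either klotho against control, was run in R 4.3.3 with lmFit and eBayes of limma 3.58.1, without a replicate block. Two-sided p-values were adjusted over all genes by the Benjamini-Hochberg method, with a threshold of 0.05. KL-FL minus KL1 came from a 3-group fit. Counts, shares and motif searches used Python 3.11.15 and pandas 2.3.3. The scripts were tested on simulated data.

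The members and the 31 gene lists, 3 of them cell type markers, were chosen with earlier results of these data known. Named genes are KL, 11 unfolded protein response markers, genes called by limma, the 10 widest gaps in each direction, and list members separated on 6 of 6 arrays, of which up to 4 per list by gap needed values. Genes named outside this rule were chosen after their values were seen: SDF2L1, TOB2, CTDSPL, VILL's neighbour PLCD1, STARD9, PPA2, the miRNA and small RNA genes beyond the widest gaps, and the genes with an ER stress element. The 1-letter variant of that element was searched after the data were seen. Alternatives were the scaling, the choice of probe sets, a filter on dim genes (the 50th percentile of the mean level), the fit's variance model, array weights, the replicate number as a block, and leaving out each array. Labels give every group replicate numbers 1, 2 and 3 without saying what they share.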

Additional observations from a re-analysis of the deposited data

Results flagged for a closer look

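Of 101 genes and list medians examined within the 6 klotho arrays, 19 had 1 array farther from its nearest neighbour than Dixon's limit for 6 values allows (0.625 of the range). Chance gives such a gap in about 1 in 20 groups of unselected, normally distributed values. Most genes here were chosen by the 6 of 6 rule on these arrays, and all share the same 6 arrays. The 19 can therefore not be read against that rate. KL-FL replicate 3 was the distant array in 13 of the 19, KL-FL replicate 1 and KL1 replicate 2 in 2 each, and KL-FL replicate 2 and KL1 replicate 3 in 1 each.

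On KL-FL replicate 3, genes that were low for the group lay farther down. SCARNA12 was at 9.36 against 9.94 to 10.20 on the other klotho arrays, and LRPAP1 at 8.52 against 8.78 to 8.88. SSR2 was at 9.86 against 10.10 to 10.18, PSMD3 at 8.51 against 8.74 to 8.83 and JUNB at 7.61 against 7.87 to 7.93. FAM174C was at 6.87 against 7.13 to 7.19 and PLCB3 at 7.08 against 7.21 to 7.22. DERL1 was at 8.64 against 8.76 to 8.81, PRIM1 at 7.89 against 8.07 to 8.10 and POLE2 at 7.50 against 7.59 to 7.63. TGFBR2, of the higher set, lay the other way, at 7.84 against 7.65 to 7.71. The list medians of replication-dependent histones and NRF2 antioxidant genes, relative to the control means, were -0.33 against -0.056 to 0.044 and -0.077 against -0.015 to 0.014.

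On KL1 replicate 2 the ER stress genes DNAJB9, at 5.97 against 5.31 to 5.55, and MANF, at 8.56 against 8.20 to 8.31, were the highest. The remaining genes were PARM1-AS1 on KL1 replicate 3, at 3.91 against 4.16 to 4.25, CCIN and SPATA18 on KL-FL replicate 1, at 3.41 against 3.50 to 3.54 and 4.69 against 4.60 to 4.62, and DERL2 on KL-FL replicate 2, at 7.12 against 6.94 to 6.97. No named gene differed between the vectors by limma after adjustment.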

How the results depend on the processing

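limma called 1 gene, DDIT3, as deposited. It called 2 after quantile normalization (DDIT3 and HERPUD1), 4 with array weights (with HSP90B1 and MIR26A1), and 0 with every probe set in the fit (DDIT3 adjusted p = 0.0569). Leaving out 1 array gave 0 to 2 calls. Leaving out KL-FL replicate 3 and KL1 replicate 2 together, chosen after seeing the data, gave 3 (DDIT3, HERPUD1 and, lower, the brightest probe set named TOB2). With each gene's own variance the 1 call was PPA2, lower, and DDIT3 had an adjusted p of 0.103. Between KL-FL and KL1 array weights gave 1 call. A replicate block left 0 calls (DDIT3 adjusted p = 0.0767). The numbers share no stated source. Deviations from the group means were correlated between same-numbered arrays, for replicates 1, 2 and 3 in turn. They gave 0.0974, -0.000404 and -0.00729 for control and KL-FL, and 0.113, 0.322 and 0.186 for control and KL1. For KL-FL and KL1 they gave 0.0121, -0.0955 and -0.0945. All 3 control and KL1 pairs passed 0.1 and no other pair did, and the main test has no block.

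The count of genes above every control was 165 among genes above the 50th percentile of the mean level, 688 of 33297 probe sets, 887 without both arrays and 428 to 991 without any 1 array. The count below was 476 after quantile normalization, 428 of all probe sets, 451 without both arrays and 267 to 631 without any 1 array. Fewer arrays make separation easier by construction. CHAC1 ran from -0.034 to 0.067 on leaving out 1 array, and was negative, up to -0.0012, for 5 of them. The deposited values carry no background measure, so dim genes such as KL and the miRNA loci cannot be told from absent ones, and 3 controls set every boundary.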

Other observations

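The largest mean differences in the table lay outside both sets. A probe set named TOB2 read 9.71, 10.05 and 10.35 on the controls and 7.56, 7.92 and 7.35 with KL-FL. With KL1 it read 7.70, 10.13 and 7.98, so KL1 replicate 2 sat among the controls while the other 5 klotho arrays lay at 7.35 to 7.98. The difference was -1.93 (SE 0.52, limma adjusted p = 0.732). Another probe set named TOB2 held the same values on every array. The remaining TOB2 probe set, the dimmest, ran from 6.95 to 7.25 over all 9 arrays, with a difference of 0.06, so the gene name rests on the annotation of the brighter pair. RNU5D-1 and RNU5F-1, copies of the U5 spliceosomal RNA, followed at -1.28 and -1.12, with KL-FL replicate 3 lowest at 2.99 and 2.57.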
